A study of Mus musculus with 6 samples.

Results

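The 10 genes described here encode the enzymes and chaperones that prepare collagen chains for assembly: the prolyl 4-hydroxylase alpha subunits P4ha1, P4ha2 and P4ha3, the lysyl hydroxylases Plod1, Plod2 and Plod3, the chaperone Serpinh1, the prolyl isomerase Fkbp10, the calcium-binding protein Rcn3 and the procollagen cleavage enhancer Pcolce. They were picked by symbol from the 19893 gene symbols that had a row in all 6 count tables, each symbol being represented by its most counted transcript. All 10 passed the filter on low counts. RNA was sequenced from 3 libraries of primary tumour (PT) spheres and 3 libraries of early lesion (EL) spheres. Both groups came from FvB mice that carry MMTV-Neu, a transgene in which a mammary tumour virus promoter drives the Neu (Erbb2) oncogene in mammary epithelium. PT spheres were grown from tumours of mice older than 20 weeks, and EL spheres from mammary glands of mice aged 14 to 18 weeks with no palpable tumour. In both groups digested cells were kept for 7 days on ultra-low adhesion plates in mammosphere medium. The tissue label of the EL samples names lung as well as mammary tissue, and whether replicates are different mice is not labelled. The p-values then reflect library-to-library spread alone, possibly of technical origin.

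Collagen chains are modified in the endoplasmic reticulum (ER) before they fold into a triple helix. Prolyl 4-hydroxylases make the hydroxyproline that keeps the helix stable at body temperature, and lysyl hydroxylases make the hydroxylysine that later carries sugars and crosslinks. Chaperones of the ER bind the chains during folding and transport, and the propeptides are cleaved outside the cell. In the mammary gland most fibrillar collagen is known to come from stromal fibroblasts, while epithelial cells contribute to the basement membrane.

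Counts summed over the kept transcripts to between 47029670 and 51117359 in the PT libraries and between 43278382 and 44166281 in the EL libraries. The table of EL replicate 1 is incomplete, but it holds a row for each of the 10 genes and of every gene listed below. Both groups are labelled as breast cancer cells. The 8 luminal epithelial markers examined were present in both groups and all 8 were higher in PT, with summed levels of 7636 to 7889 CPM (counts scaled to the library total) in PT and 2091 to 2143 CPM in EL. The 10 fibroblast markers tested, of 12 listed, were all lower in PT, with summed levels of 121 to 141 CPM in PT and 9527 to 9937 CPM in EL. The 8 endothelial markers were all lower too, with sums of 2.12 to 2.44 CPM in PT and 196 to 212 CPM in EL. The defining fibroblast marker Pdgfra stood at 7.76 ± 0.363 CPM in PT and 402 ± 25.1 CPM in EL (mean ± SD, n = 3 each, as throughout), and no tested marker of these lists was at 0 in all libraries of a group. Their part in the results below was not tested, and in these bulk libraries fewer cells of a type cannot be told apart from less RNA per cell.

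All 10 genes were lower in PT spheres than in EL spheres, but by very different amounts. Log2 fold changes, given as PT minus EL with a standard error (SE) throughout, ran from -1.50 (SE 0.08) for Plod2 to -6.55 (SE 0.05) for Rcn3, with a median of -4.01, against 0.00 over all 13844 genes tested. Expressed as the PT level in percent of the EL level, Plod2 stood at 35.3% and Rcn3 at 1.07%. The edgeR quasi-likelihood test called 10 of 10 lower in PT (adjusted p at most 8.00e-10), where it called 40.8% of all tested genes lower, 39.9% higher and 80.7% in either direction, so the call alone sets the 10 apart little. Scaling by library totals instead of TMM factors (trimmed mean of M-values, a correction for composition) moved all genes up by a median of 0.25, and 65.8% instead of 49.5% of the called genes were then higher in PT; the 10 genes stayed lower. Against a 2-fold minimum it again called 10 of 10, where 17.3% of all tested genes were called lower and 7.30% higher (adjusted p at most 9.95e-06). The 3 PT and 3 EL values did not overlap for any of the 10, as for the 41.7% of all tested genes with every PT value below every EL value and the 82.7% without overlap in either direction. A fall beyond -4 on the log2 scale was seen in 5 of the 10 and in 6.98% of all tested genes.

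**Figure D1:**
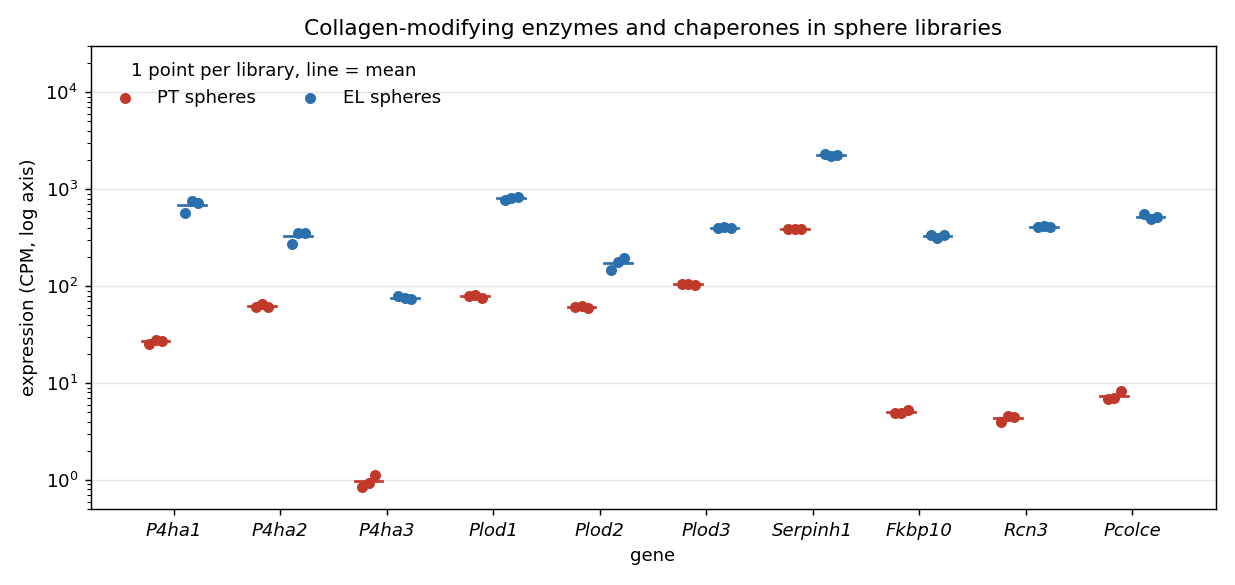
Expression of the 10 genes in CPM (log axis) for each PT library (red, left) and each EL library (blue, right), with lines at the group means. Every PT point lies below every EL point of the same gene, and the gap is narrowest for Plod2 (60.9 against 173 CPM) and widest for Rcn3 (4.32 against 407 CPM).

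The prolyl 4-hydroxylase alpha subunits carry the catalytic site and pair with the beta subunit P4hb, the protein disulfide isomerase. P4ha1, the main alpha subunit of most cells (chromosome 10, 59323197 to 59373304 on mm10), had 25.6, 27.8 and 27.4 CPM in PT replicates 1 to 3, against 571, 763 and 719 CPM in EL replicates 1 to 3. The groups were far apart, and the first EL library was the lowest of its group. The log2 fold change was -4.67 (SE 0.10; adjusted p = 7.58e-14). P4ha2 (chromosome 11, 54100924 to 54131668), known as an important alpha subunit in cartilage and bone, had 60.4, 66.0 and 61.0 CPM in PT, against 270.1, 355 and 350.5 CPM in EL. It fell much less than P4ha1, with a log2 fold change of -2.38 (SE 0.09; adjusted p = 2.43e-11), and again the first EL library was the lowest. P4ha3 (chromosome 7, 100285489 to 100319701), a less abundant alpha subunit, had 0.839, 0.936 and 1.13 CPM in PT, from 43, 50 and 63 counts, against 79.5, 75.3 and 73.9 CPM in EL. Its log2 fold change was -6.29 (SE 0.08; adjusted p = 5.70e-16), so the alpha subunits differed among themselves by more than their errors.

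To show how the start regions of these paralogs differ, the 250 bases before the RefSeq start of each are given 5′ to 3′ (RefSeq, GRCm38.p6). The gene coordinates above place the starts of P4ha1 and P4ha3 further upstream. By those coordinates 99 bases of the P4ha1 window, its ACGTG match included, and 31 bases of the P4ha3 window lie inside the gene. In all, 5 motifs were searched on both strands: ACGTG and GCGTG, the core letters bound by hypoxia-inducible factors, CCAAT (the CCAAT box), GAANNTTC (a heat shock element core) and GGGCGG (a GC box). Capitals mark the first 4 of them, and in these windows only ACGTG and GCGTG occur among those 4. No capitalised matches overlap, while some GGGCGG matches of P4ha3 overlap each other.
P4ha1 (chr10:59323046-59323295, plus strand): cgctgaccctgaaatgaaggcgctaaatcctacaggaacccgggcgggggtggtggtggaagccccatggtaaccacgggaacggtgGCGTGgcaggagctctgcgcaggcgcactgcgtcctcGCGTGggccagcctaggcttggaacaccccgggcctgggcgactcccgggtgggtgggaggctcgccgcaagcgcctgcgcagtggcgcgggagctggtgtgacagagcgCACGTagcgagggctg
P4ha2 (chr11:54100674-54100923, plus strand): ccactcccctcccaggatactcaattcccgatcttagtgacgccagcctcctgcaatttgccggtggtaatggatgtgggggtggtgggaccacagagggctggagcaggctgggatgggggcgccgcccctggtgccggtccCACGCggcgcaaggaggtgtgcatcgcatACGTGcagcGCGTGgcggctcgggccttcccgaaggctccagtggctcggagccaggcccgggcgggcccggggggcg
P4ha3 (chr7:100285270-100285519, plus strand): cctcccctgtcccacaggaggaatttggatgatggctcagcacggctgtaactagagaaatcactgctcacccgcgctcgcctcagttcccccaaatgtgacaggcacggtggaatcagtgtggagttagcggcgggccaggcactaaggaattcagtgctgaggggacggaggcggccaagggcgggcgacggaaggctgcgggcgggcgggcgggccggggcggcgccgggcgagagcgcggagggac
P4ha1 held 1 match to ACGTG and 2 to GCGTG in this window, P4ha2 held 1 and 2, and P4ha3 held none. P4ha3 held 5 matches to GGGCGG, P4ha2 held 2 and P4ha1 held 1. Among all 32851 promoter windows of this length in the RefSeq table, 16.6% held ACGTG, 28.2% GCGTG, 33.8% CCAAT, 6.69% GAANNTTC and 32.7% GGGCGG. Of the 8 genes of the group with a promoter entry, 5 held ACGTG, 6 held GCGTG, 2 held CCAAT, 0 held GAANNTTC and 7 held GGGCGG. These counts include matches inside genes. By the gene coordinates 109 bases of the Rcn3 window and 118 bases of the Pcolce window lie inside the gene, with every match of Rcn3 and Pcolce. Plod2 and Fkbp10 were not matched. The bases G and C made up between 53.2% (Rcn3) and 70% (P4ha2) of the windows of the 8 genes. The comparison with all windows did not take base composition into account. A match is a description of the letters and not of binding.

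The mix of alpha subunits differed between the groups. Levels of different genes are compared here as CPM per kilobase of the kept transcript. On that scale P4ha2 made up 80.2%, 80.3% and 79.0% of the summed alpha subunits in PT, against 40.9%, 41.9% and 42.9% in EL. P4ha1 made up 19.0% ± 0.539 in PT and 48.6% ± 0.985 in EL, and P4ha3 made up 1.17% ± 0.186 in PT and 9.44% ± 1.68 in EL. P4ha2 was therefore the most abundant alpha subunit transcript in PT, while P4ha1 was ahead of P4ha2 in each EL library. The groups did not overlap for any of the 3 shares (exact two-sided permutation p = 0.1 for each of 6 shares tested and 0.1 after adjustment, the smallest that 3 libraries against 3 allow). The levels of 82.7% of all tested genes did not overlap between the groups either, so a gap alone sets a share or ratio apart little. P4hb fell less than the alpha subunits together, with 456 ± 3.28 CPM in PT and 2063.5 ± 141 CPM in EL (log2 fold change -2.18, SE 0.05). The ratio of the summed alpha subunits to P4hb per kilobase was 0.220 ± 0.0108 in PT and 0.480 ± 0.0337 in EL, a log2 difference of -1.12. The libraries did not overlap (exact two-sided permutation p = 0.1; 1 of 3 partner ratios chosen after the values were seen, adjusted p = 0.1).

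The lysyl hydroxylases fell less than P4ha1 and P4ha3, and also to different degrees. Plod1 (chromosome 4, 147909753 to 147936776), which hydroxylates lysines of the triple helix, had 79.9, 80.8 and 76.0 CPM in PT, against 765, 816 and 829 CPM in EL (log2 fold change -3.35, SE 0.04; adjusted p = 7.26e-16). Plod2 (chromosome 9, 92539636 to 92608428), the enzyme of the telopeptide lysines that form stable crosslinks, had 60.6, 62.0 and 60.1 CPM in PT, against 146, 179 and 193 CPM in EL. Its fall was the smallest of the 10, at -1.50 (SE 0.08; adjusted p = 8.00e-10). Plod3 (chromosome 5, 136987019 to 136996646), which also transfers sugars to hydroxylysine and is needed for type IV collagen in mice, had 104.6, 106 and 103 CPM in PT, against 398, 406 and 402 CPM in EL. The 3 libraries of each group were tight for this gene, and the log2 fold change was -1.94 (SE 0.03; adjusted p = 4.06e-15). The Plod3 locus shares 941 bases with Znhit1, which stood at 39.6 ± 0.899 CPM in PT and 72.0 ± 1.49 CPM in EL, and the Plod2 locus shares 3234 bases with the noncoding RNA B430319G15Rik. Reads in those overlaps cannot be told apart here.

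Plod1 led its family in EL but not in PT. It made up 33.7%, 33.6% and 32.9% of the summed lysyl hydroxylases per kilobase in PT, against 59.4%, 59.3% and 59.3% in EL. Plod3 made up 43.7% ± 0.277 in PT and 29.4% ± 1.08 in EL, and Plod2 made up 22.8% ± 0.199 in PT and 11.3% ± 1.10 in EL. Plod3 was the most abundant lysyl hydroxylase transcript in every PT library and Plod1 in every EL library. The groups did not overlap for any share (exact two-sided permutation p = 0.1), but neither did the levels of 82.7% of all tested genes. The whole family stood at 72.8 ± 1.45 CPM per kilobase in PT and 417 ± 17.9 in EL, and the alpha subunit family at 35.1 ± 1.62 in PT and 347 ± 45.0 in EL.

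**Figure D2:**
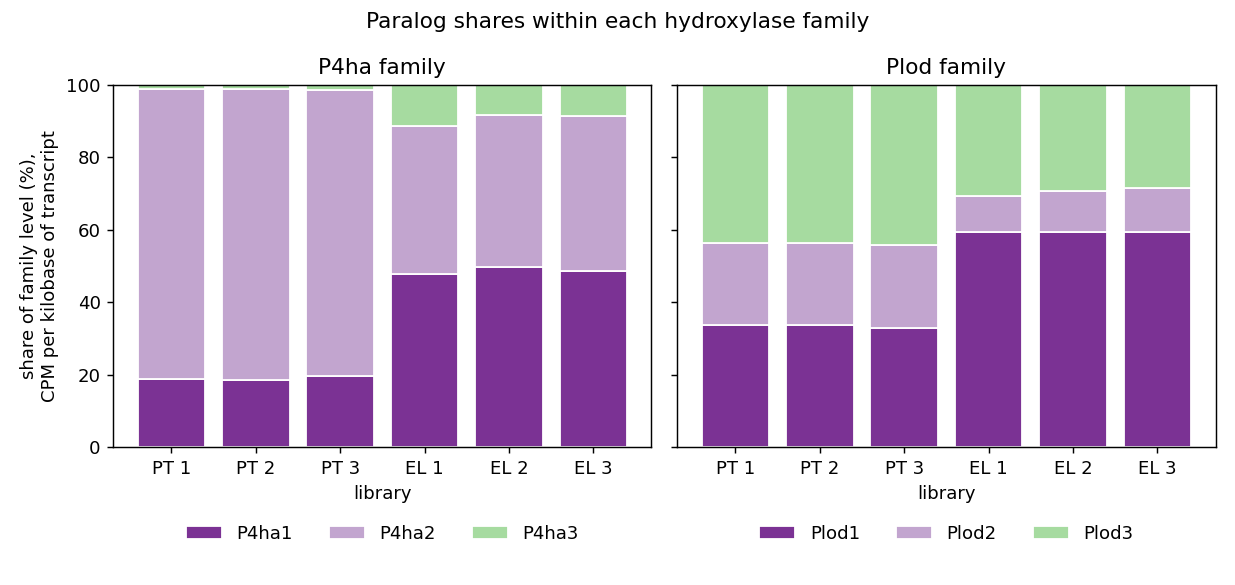
Share of each paralog in the summed level of its family (percent of CPM per kilobase of transcript) in the 3 PT and 3 EL libraries, for the prolyl 4-hydroxylase alpha subunits (left panel) and the lysyl hydroxylases (right panel). P4ha2 averages 79.8% in PT and 41.9% in EL, and Plod1 averages 33.4% in PT and 59.3% in EL.

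Serpinh1 (chromosome 7, 99345375 to 99353239), the collagen-specific chaperone that escorts folded procollagen out of the ER, was the most abundant of the 10 per kilobase in both groups. It had 387, 386 and 387 CPM in PT, against 2312, 2222 and 2257 CPM in EL (log2 fold change -2.55, SE 0.03; adjusted p = 7.95e-16). The spread within each group was small beside this difference. Serpinh1 made up 59.2% ± 0.591 of the summed CPM per kilobase of the 10 genes in PT and 40.1% ± 1.14 in EL. The genes whose centred log2 CPM lay nearest to that of Serpinh1 over the 6 libraries, among 13205 compared, were Rassf8 (distance 0.0494), Kremen1 (0.0495) and Lhfpl2 (0.0624), with log2 fold changes of -2.55, -2.58 and -2.50.

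Fkbp10 and Rcn3 fell far more than Serpinh1. Fkbp10 (chromosome 11, 100415694 to 100424840), a prolyl isomerase that assists procollagen folding and lysyl hydroxylation of the telopeptides, had 4.91, 4.96 and 5.30 CPM in PT, against 334, 316 and 334 CPM in EL (log2 fold change -6.02, SE 0.05; adjusted p = 5.30e-17). Its locus shares 2524 bases with Nt5c3b, which stood at 17.9 ± 0.790 CPM in PT and 70.4 ± 1.79 CPM in EL. Rcn3 (chromosome 7, 45082914 to 45092322), a reticulocalbin that binds calcium in the ER lumen, had 3.96, 4.57 and 4.44 CPM in PT, against 404, 413 and 403 CPM in EL. This was the deepest fall of the group, and only 1.65% of all tested genes had a lower log2 fold change. Relative to Plod2, whose telopeptide activity is known in human to depend on Fkbp10, Fkbp10 stood at a per-kilobase ratio of 0.118 ± 0.00624 in PT and 2.73 ± 0.436 in EL (log2 difference -4.52, exact two-sided permutation p = 0.1, adjusted p = 0.1). This pair was chosen after the values were seen, so the p-value is no independent support.

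Pcolce (chromosome 5, 137605105 to 137611522), a secreted protein that speeds the removal of the procollagen C-propeptide by Bmp1, had 6.79, 7.04 and 8.21 CPM in PT, against 557, 488 and 519 CPM in EL. Its log2 fold change was -6.15 (SE 0.07; adjusted p = 3.74e-16). Bmp1 itself fell less, with 134 ± 3.36 CPM in PT and 1021 ± 52.6 CPM in EL (log2 fold change -2.93, SE 0.04). The ratio of Pcolce to Bmp1 per kilobase was 0.125 ± 0.0152 in PT and 1.16 ± 0.0302 in EL (log2 difference -3.22, exact two-sided permutation p = 0.1, adjusted p = 0.1). This pair, too, was chosen after the values were seen, and its p-value is no independent support.

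The order of the levels per kilobase changed with these unequal falls. In PT it ran from Serpinh1 (170 ± 0.337 CPM per kilobase) over Plod3, P4ha2, Plod1, Plod2, P4ha1, Pcolce, Rcn3 and Fkbp10 to P4ha3 (0.410 ± 0.0632), and no neighbours in that order overlapped. In EL it ran from Serpinh1 (996 ± 20.0) over Pcolce, Rcn3, Plod1, P4ha1, P4ha2, Fkbp10, Plod3 and Plod2 to P4ha3 (32.3 ± 1.22), and the values of P4ha1 and P4ha2, of P4ha2 and Fkbp10, and of Fkbp10 and Plod3 overlapped. Pcolce and Rcn3 thus ranked behind Serpinh1 alone in EL and ranked seventh and eighth in PT.

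The falls were set beside that of the main substrates, the fibrillar collagen chains Col1a1, Col1a2 and Col3a1. These chains summed to 388, 425 and 486 CPM in PT, against 55860.4, 52321 and 53959.5 CPM in EL, a log2 difference of -6.97. In PT the sum was 0.801% of that in EL. All 10 genes fell less than this sum, so the log2 ratio of each gene to the collagen sum was higher in PT in 10 of 10, with no overlap of the libraries, as in 97.0% of all tested genes, so the count sets the 10 apart little and only the sizes are described (exact two-sided permutation p = 0.1 for each of 10 ratios and 0.1 after adjustment). For Rcn3 the log2 ratio was -6.64 ± 0.12 in PT and -7.05 ± 0.06 in EL, a difference of 0.41. The single chains had log2 fold changes of -6.74 (Col1a1), -6.59 (Col1a2) and -7.50 (Col3a1). Rcn3, at -6.55, thus fell about as far as Col1a2 alone. P4ha3, Pcolce and Fkbp10 also stayed near the collagens, with differences of 0.66, 0.82 and 0.95. For P4ha1 the difference was 2.31 and for Plod1 3.62. For Serpinh1 the log2 ratio was -0.16 ± 0.16 in PT and -4.58 ± 0.02 in EL, a difference of 4.42. P4ha2, Plod3 and Plod2 moved furthest from the collagens, with differences of 4.60, 5.03 and 5.48.

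**Figure D3:**
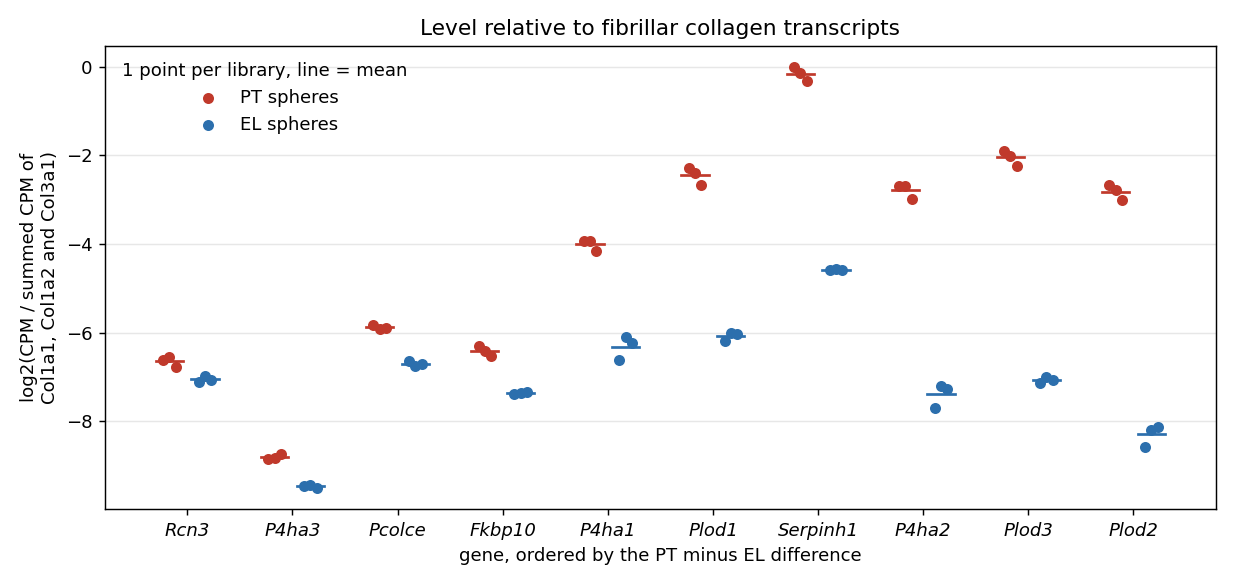
Log2 ratio of the CPM of each gene to the summed CPM of Col1a1, Col1a2 and Col3a1 in each PT library (red, left) and EL library (blue, right), with lines at the means and genes ordered by the difference. The difference is 0.41 for Rcn3 at the left end and 5.48 for Plod2 at the right end.

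Other genes of collagen maturation, taken from lists, ranged from deep falls to a rise. Prolyl 3-hydroxylases modify single prolines of the chains. Of 6 genes listed for this family and its partners, 5 fell and 1 rose, with a median log2 fold change of -2.54. Lepre1 (P3h1) had 18.7 ± 0.168 CPM in PT and 220 ± 4.45 CPM in EL (log2 fold change -3.56, SE 0.03). Its partner Crtap showed -3.07 (SE 0.04), and Leprel2 and Leprel4 had -3.43 and -2.00. The gene that rose was Leprel1 (P3h2), an enzyme known to act on type IV collagen, with 22.6 ± 1.84 CPM in PT and 10.2 ± 0.712 CPM in EL (log2 fold change 1.14, SE 0.07; named after its values were seen). Both collagen galactosyltransferases fell, Glt25d1 (Colgalt1) by 0.51 and Colgalt2 by 0.95 on the log2 scale. Of 9 other ER genes, mostly immunophilins and calcium-binding relatives of Rcn3, 8 fell and Rcn2 did not pass the test (median -1.26). With library totals 7 fell and Rcn2 was called higher (0.27). Fkbp7, Rcn1, Fkbp14 and Calu led this list with log2 fold changes of -4.20, -2.87, -2.83 and -1.40.

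Genes for export of large procollagen cargo fell in 5 of 7, with 1 higher and a median of -1.05 (4 lower and 2 higher with library totals), among them the cargo receptor Mia3 (-1.05), the coat proteins Sec23a (-2.06) and Sec24d (-1.77), and the collagen gene activator Creb3l1 (-1.33). All 6 tested genes of propeptide cleavage fell, of 7 listed, with a median of -3.80 (5 of 6 with library totals). Adamts2, the main N-propeptidase, had 14.6 ± 1.01 CPM in PT and 693 ± 19.1 CPM in EL (log2 fold change -5.57, SE 0.05), while Pcolce2, a paralog of Pcolce, and Adamts14 had -4.86 and -2.47. All 5 lysyl oxidases, which crosslink the finished fibre, fell with a median of -6.28, among them Lox (-6.42, SE 0.15), Loxl1 (-6.28), Loxl2 (-6.71) and Loxl3 (-3.25). General ER folding genes fell in 11 of 11 but by little, with a median of -0.67 and a range of -1.07 to -0.21, and in 10 of 11 with library totals, where Sdf2l1 stood at 0.04. Examples are Pdia6 (-1.07), Hyou1 (-0.98), Hspa5 (-0.85) and Dnajc3 (-0.79). The median of the 10 collagen-modifying genes, -4.01, lay below the log2 fold change of every gene of that list.

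The substrates themselves were not uniform. Of 11 fibrillar chains 8 fell and 2 rose, with a median of -6.59, and Col5a1, Col1a1, Col5a2 and Col1a2 had log2 fold changes of -6.86, -6.74, -6.66 and -6.59. The chains that rose were Col11a1, with 126 ± 4.23 CPM in PT and 43.4 ± 2.75 CPM in EL (log2 fold change 1.53, SE 0.05), and Col11a2 (0.45, SE 0.10), both named after their values were seen. Of the 6 basement membrane chains, Col4a1 and Col4a2 fell by 5.75 and 5.66 on the log2 scale and the other 4 rose, among them Col4a5, with 200.5 ± 9.72 CPM in PT and 109 ± 3.47 CPM in EL (0.88, SE 0.04), and Col4a6 (0.24, SE 0.04).

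**Figure D4:**
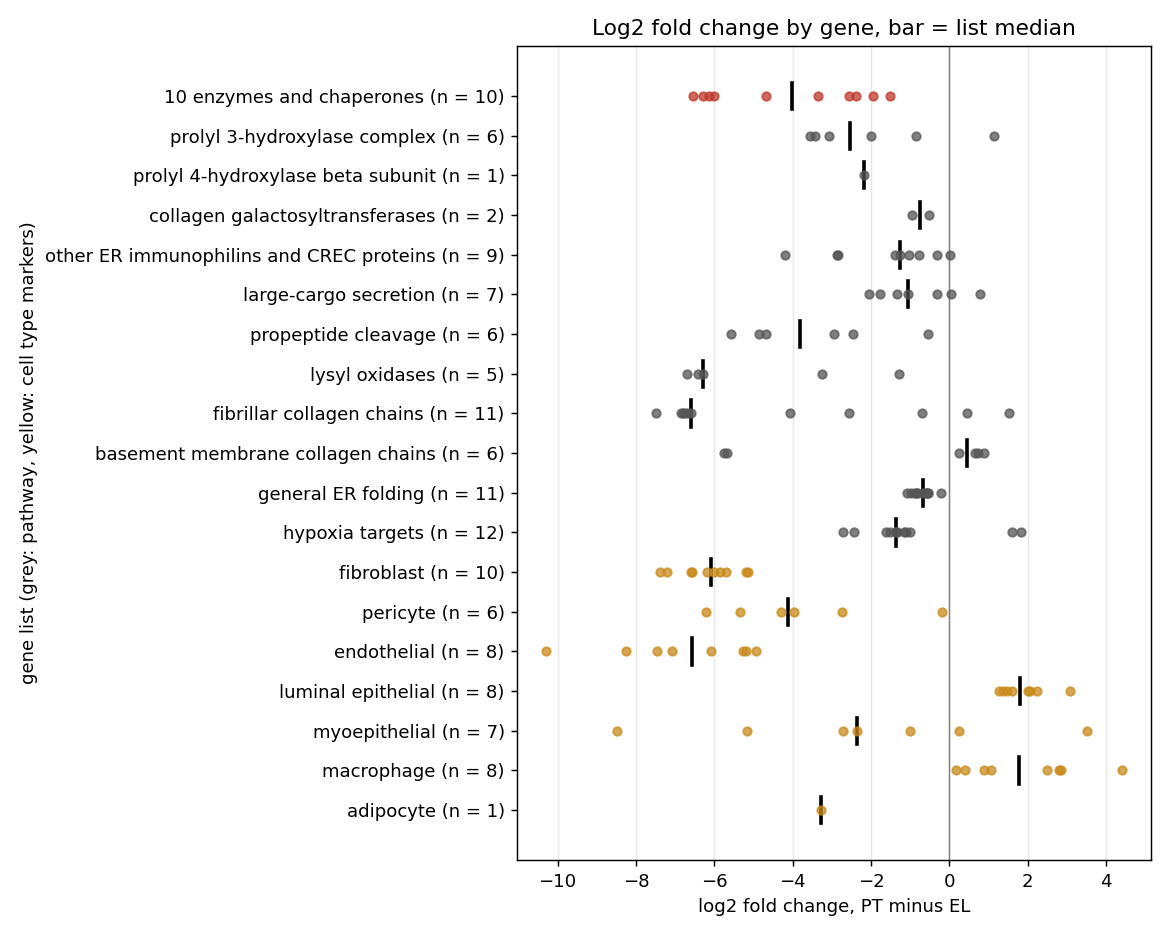
Log2 fold change (PT minus EL) of each of the 10 genes (red), of the genes of the collagen pathway lists, ER folding genes and hypoxia targets (grey), and of cell type markers (yellow), with bars at the list medians. The 10 genes spread from -6.55 to -1.50, between the fibrillar chains (median -6.59) and the general ER folding genes (median -0.67).

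Cell type markers moved in the same comparison. The fibroblast markers had a median log2 fold change of -6.09 and a range of -7.38 to -5.14. Dcn, Lum, Fbln2 and Pdgfra had log2 fold changes of -7.21, -6.57, -6.19 and -5.69. Rcn3, P4ha3, Pcolce and Fkbp10 lay inside that range, and the other 6 genes lay above it. Among all tested genes, 0.686% lay below the lower end of the fibroblast range and 4.64% below its upper end. The match is not particular to fibroblast markers. The same genes lay inside the range of the endothelial markers, -10.3 to -4.93. The range of the pericyte markers, -6.20 to -0.18, held all of the 10 but Rcn3 and P4ha3. The 6 pericyte markers fell (5 of 6 with library totals, where Notch3 stood at 0.07) with a median of -4.12 (Pdgfrb -6.20, Cspg4 -5.33, Rgs5 -4.29, Abcc9 -3.95), summing to 115 to 124 CPM in PT and 1353 to 1556 CPM in EL. The 8 endothelial markers fell with a median of -6.58 (Cdh5 -8.26, Pecam1 -7.45, Tie1 -5.27, Plvap -5.19). All 8 luminal markers rose with a median of 1.80 (Kit 3.08, Cldn3 2.23, Krt18 2.05, Krt8 2.01). Of 7 myoepithelial markers 5 fell and 2 rose (Krt5 -8.49, Myh11 -5.17, Acta2 -2.70, Oxtr 3.52), and their sums of 438 to 469 CPM in PT overlapped those of 460 to 508 CPM in EL. Of 8 macrophage markers 7 rose, and 8 with library totals (Cx3cr1 4.40, C1qb 2.86, C1qc 2.80, C1qa 2.51), with sums of 177 to 204 CPM in PT and 71.9 to 95.7 CPM in EL. Of 5 adipocyte markers 1 was tested, Fabp4 (-3.26). What these cell types contributed to the falls of the 10 genes was not tested.

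Within the EL group, P4ha1, P4ha2 and Plod2 varied more than the other 7 genes. In EL replicate 1 they stood at 77.1%, 76.5% and 78.7% of the mean of EL replicates 2 and 3, and Plod1 at 92.9%. The other 6 genes stood between 98.6% (Plod3) and 111% (Pcolce). Among 11853 genes with a mean count of at least 100, between 1.95% and 2.35% had a lower value of this ratio than P4ha1, P4ha2 or Plod2. P4ha1, P4ha2 and Plod2 are known targets of hypoxia-inducible factors, and a list of 12 other such targets was examined beside them. All 12 were lower in EL replicate 1 than in both other EL libraries, where 38.3% of the 11853 genes were, with a median log2 ratio of -0.32 against 0.00 over those genes. Bnip3, Egln1, Slc2a1 and Ldha stood at 72.3%, 85.1%, 91.3% and 91.1%. This comparison was chosen after the values were seen, and its cause was not tested. Between the groups, 10 of the 12 targets fell in PT and 2 rose, with a median log2 fold change of -1.35 (Bnip3 -2.71, Slc2a1 -1.35, Egln1 -1.34, Ldha -0.99). The targets that rose were Egln3 (1.83, SE 0.10) and Car9 (1.61, SE 0.08), both named after their values were seen. Without EL replicate 1 the log2 fold changes were -4.78 for P4ha1, -2.50 for P4ha2 and -1.61 for Plod2.

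**Figure D5:**
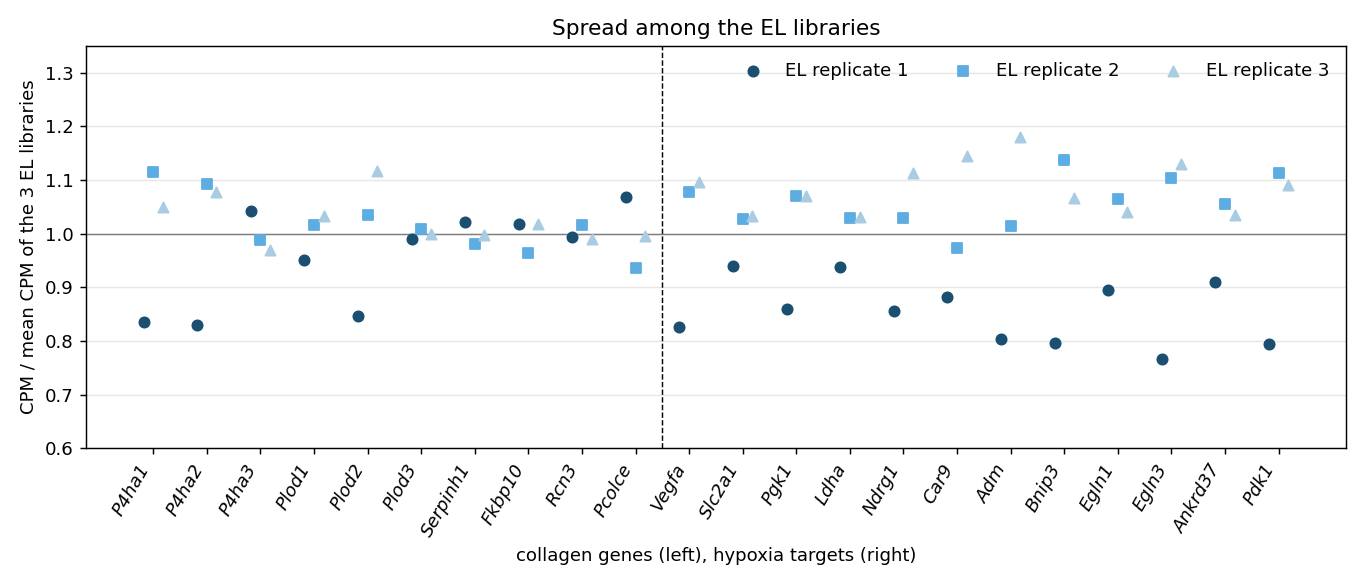
CPM of each gene in the 3 EL libraries divided by their mean, for the 10 collagen genes (left of the dashed line) and 12 hypoxia targets (right). EL replicate 1 (dark circles) lies lowest for P4ha1, P4ha2, Plod1, Plod2, Plod3 and all 12 hypoxia targets, and highest for P4ha3, Serpinh1 and Pcolce.

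The genes whose pattern over the 6 libraries was nearest to that of P4ha1 were Gpx3 (distance 0.210 in centred log2 CPM), Adamts6 (0.212) and Col12a1 (0.225). Col12a1, a collagen associated with fibrils, had 71.6 ± 1.19 CPM in PT and 1644 ± 161 CPM in EL (log2 fold change -4.52, SE 0.07), and Gpx3 and Adamts6 had log2 fold changes of -4.64 and -4.61. The distances were larger than those of the nearest neighbours of Serpinh1.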

How the data were processed

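Each deposited table gives whole-number read counts of RefSeq transcripts as the authors made them, without normalisation. The submitters' processing notes name STAR, featureCounts and DESeq2, with mm10 and hg19 as builds. Versions, parameters and strandedness were not given in the sources used here. For EL replicate 1 the table breaks off after 27664 of 33068 rows. Rows present in all 6 tables were used, with 1 transcript per symbol. Alternative transcripts of a gene carried nearly the same counts (at most 0.413% apart for the 10 genes), so reads appear to be counted for each transcript they overlap, and isoforms cannot be told apart. Deposited totals were 69759793 to 85126630 counts.

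Genes were kept by filterByExpr and tested in R 4.3.3 with edgeR 4.0.16 (TMM factors, quasi-likelihood test, Benjamini-Hochberg adjustment over 13844 genes, threshold 0.05). SE is the log2 fold change divided by the square root of the F statistic. CPM use TMM-scaled totals. Transcript lengths are from GENCODE M21 (GRCm38), matched by RefSeq accession for 98.9% of kept transcripts. Single values were compared by exact two-sided permutation tests. Only the fits were tested on simulated data, in which few genes changed, as often up as down. That simulation did not cover a case like these data, where 80.7% of tested genes were called. The shares, ratios and permutation tests were not part of it. The genes named are the 10, up to 4 per list with the smallest p, and the 3 nearest profiles of Serpinh1 and P4ha1 (mean count at least 20); others are marked, and Rcn2, Sdf2l1 and Notch3 were also named after their values were seen. The 10 genes and the lists were chosen with earlier results of these data known. Alternatives were other scalings, filters and tests (DESeq2 1.42.0, limma-voom 3.58.1), a replicate block, each library left out and other transcript choices.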

Additional observations from a re-analysis of the deposited data

How the results depend on the processing

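All 10 genes stayed lower in PT and past the threshold in each of the 17 alternatives run, including limma-voom, DESeq2, other filters, other transcript choices and each library left out. Scaled by library totals, the log2 fold changes of all genes shifted by a median of 0.25 and 65.8% instead of 49.5% of called genes were higher in PT; the median of the 10 genes was then -3.76, and with upper-quartile factors -3.95. Leaving out 1 library at a time gave medians of -4.08 to -3.96. Against a 2-fold minimum 3401 genes were called instead of 11173. With a replicate block edgeR called 11203 genes and again all 10. The block joins libraries that share only a number: deviations of same-numbered PT and EL libraries correlated at 0.0979, 0.077 and 0.03, and EL replicate 3 correlated more with PT replicate 2 (0.049). Summing all transcripts of a gene, which counts reads of P4ha2 and Plod2 again for each of their transcripts, gave PT minus EL share differences of -23.7 percentage points for P4ha1, 29.7 for P4ha2, -6.00 for P4ha3, 16.9 for Plod2 and 9.20 for Plod3, against -29.7, 37.9, -8.27, 11.6 and 14.4. Shares and ratios are the same under every scaling by construction, and no family share or collagen ratio reversed when a library or the transcript choice was changed. The partner ratios, for which no other transcript choice was run, were recomputed with 1 library left out. The log2 differences then ran from -1.18 to -1.08 for the summed alpha subunits over P4hb. They ran from -3.32 to -3.15 for Pcolce over Bmp1 and from -4.60 to -4.40 for Fkbp10 over Plod2. P4ha3 rests on 43 to 63 counts per PT library, so its PT level and share are the least precise of the 10.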
